A study of Mus musculus with 36 samples.

Results

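The isolated H3K27ac intervals of the wild-type mouse forelimb are stretches that carry the mark in every wild-type library and have no other wild-type peak nearby. Acetylation of histone H3 at lysine 27 (H3K27ac) is laid down by the acetyltransferases p300 and CBP and marks active promoters and enhancers, the DNA elements that switch on genes from a distance. Marked elements usually lie in groups around active genes. Some enhancers of developmental genes instead lie alone, far from other marked sites, in long stretches with few or no genes.

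The libraries are H3K27ac ChIP-seq of forelimbs dissected from FVB embryos at embryonic day 11.5, pooled over embryos, with no treatment. The tissue came from wild-type embryos (WT, 4 libraries) and from embryos null for 1 limb enhancer, namely mm1179 (4 libraries), hs72, hs1262, hs1467, hs1586 or hs1603 (2 libraries each). A peak list was used for each of the 18 libraries, and these held 26550 to 58753 peaks. A tag carried by the lists sorts them into 4 sets, called runs 1 to 4 here, and what the tag stands for is not given. Runs 1 and 2 hold all WT, mm1179 and hs72 libraries. Run 3 holds replicate 1 and run 4 replicate 2 of hs1262, hs1467, hs1586 and hs1603, so run and genotype cannot be told apart when these 4 lines are set against wild type. The lists carry no read counts, and depth is unknown.

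The 4 WT lists shared 26921 covered intervals (mm9), and 410 of them met the rule of being under 10 kb wide with no other WT peak within 100 kb on either side. Since WT peaks chose them, their WT calls, widths and spacing are a description only. The width limit removed none, since no interval that met the distance limit was 10 kb or wider. Another 26433 intervals were also under 10 kb wide and are called the other intervals below. Whether the isolated intervals lie in gene deserts was not checked, because the gene annotation at hand is of GRCm38 and not of mm9. For the same reason no gene is assigned to an interval, and the forelimb origin was not checked against marker genes.

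The isolated intervals were short and of middling strength. Their median width was 1504 bp (quartiles 1172 and 1961 bp), against 1679 bp for the other intervals. The widest was 4767 bp, and the narrowest stretch common to all 4 lists was 8 bp, on chromosome 6 from 16267151 to 16267158, within peaks that averaged 1245 bp. Strength was read from the strongest peak over an interval, as the percentile of the authors' peak score within its own list, averaged over the 4 WT lists. A broad peak can therefore count for several of the other intervals. The median percentile was 58.7 for isolated intervals and 66.6 for the others. A percentile of at least 90 was reached by 33 of 410 isolated intervals (8.05%) and by 3732 others (14.1%). The position of 1 interval within a list was not exact, since the median range of its percentile over the 4 WT lists was 20.8 points, and 18.8 for the others.

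The distance to the nearest other WT peak had a median of 147.8 kb and reached 2485 kb. It was over 200 kb for 123 intervals, over 500 kb for 35 and over 1000 kb for 15. The empty stretch around an interval, from the WT peak on its left to the one on its right, had a median length of 532.1 kb over the 406 intervals with a WT peak on both sides. Most isolated intervals stood alone in that 268 had no isolated interval next to them. Another 100 came in 50 pairs of neighbours and 30 in 10 rows of 3. Rows of 4 occurred 3 times. One spanned 8991389 to 10278077 of chromosome 10, another 109589221 to 111502135 of chromosome 7, and the last 154334122 to 155810989 of chromosome X.

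Near the distance limit, the closest intervals inside it were on chromosome 3 from 46250968 to 46252842, at 100.1 kb, and on chromosome 17 from 53827639 to 53829929, at 100.2 kb. Just outside were intervals on chromosome 19 from 16564544 to 16567325, at 99.75 kb, and on chromosome 10 from 83005879 to 83007178, at 99.71 kb. Their mean WT percentiles were 89.1 and 87.7 inside and 85.1 and 57.3 outside.

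Median strength differed by a few points between classes of distance. The 103 intervals nearest to another peak (100.1 to 117.0 kb) had a median percentile of 62.0. The next classes had 59.9 and 54.5, and the 103 farthest away (228.2 to 2485 kb) had 56.7. Over the 410 intervals Spearman's rho of percentile with distance was -0.0861, given as a description. Stronger intervals had wider WT peaks, with a rho of 0.802 over the same intervals.

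**Figure D1:**
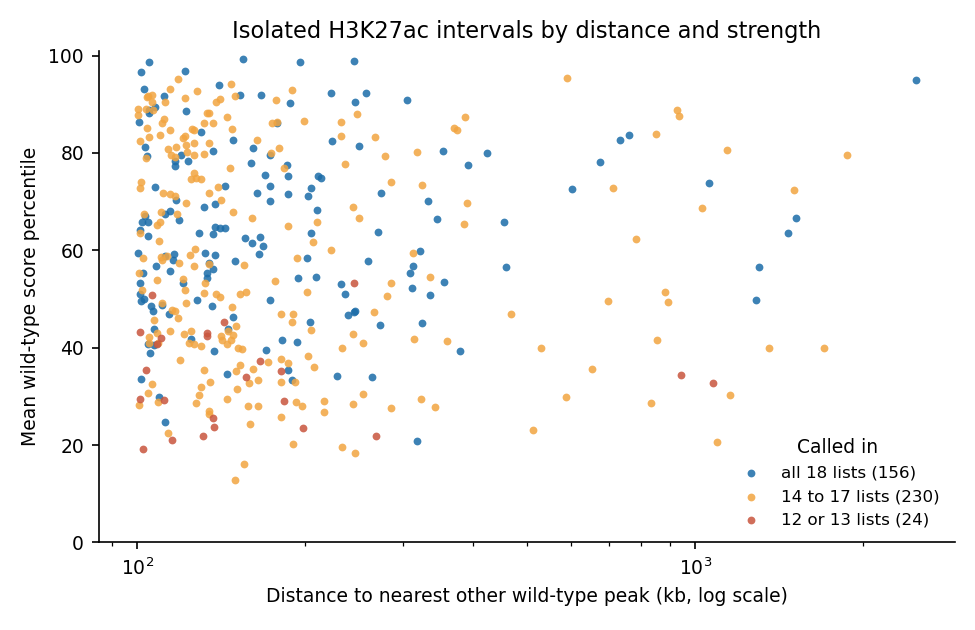
Each point is 1 of the 410 isolated intervals, placed by its distance to the nearest other wild-type peak (kb, log scale) and by its mean score percentile over the 4 wild-type lists, and coloured by how many of the 18 lists call it. The 156 intervals called in all 18 lists lie at every distance, and the intervals called in only 12 or 13 lists lie in the lower part of the strength scale.

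Chromosome X held far more isolated intervals than its share of marked sites. It carried 47 of the 410 (11.5%) and 1.82% of all intervals under 10 kb. Isolated intervals were 9.61% of the 489 such intervals on X, 1.38% on the autosomes together, and between 0.652% (chromosome 2) and 2.11% (chromosome 18) on single autosomes. Marked sites were sparser on X, at 3.05 intervals per Mb between the outermost WT peaks, against 8.60 (chromosome 1) to 16.8 (chromosome 11) on the autosomes. Per 10 Mb, X held 2.93 isolated intervals and the autosomes 1.51, with 0.784 on chromosome 2 and 2.40 on chromosome 18 as the extremes. Density of marked sites and isolation rest on the same WT peaks, so these values are not independent of each other. The X-linked intervals were of like strength to the rest, with a median percentile of 58.8 against 58.6 for autosomal ones.

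**Figure D2:**
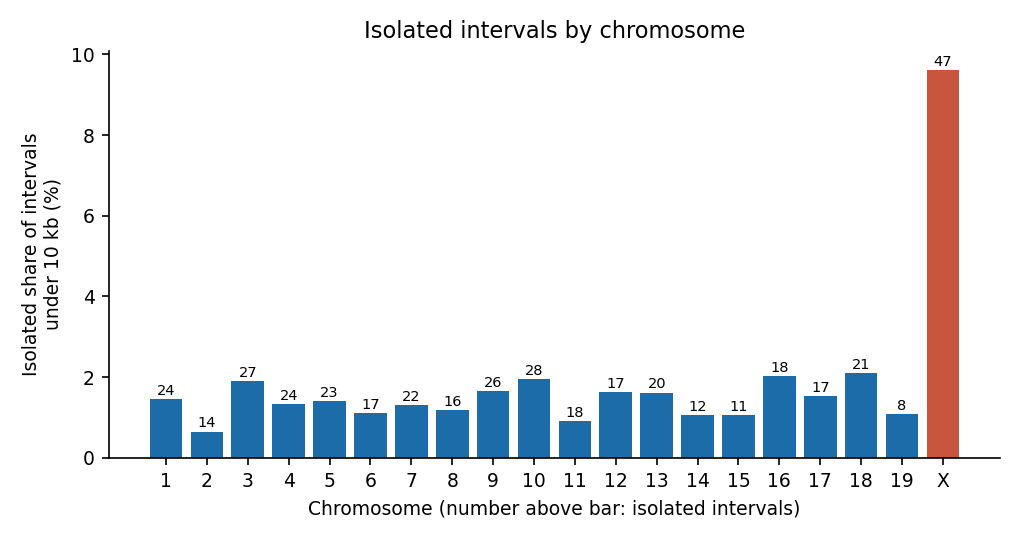
Bars give the percentage of intervals under 10 kb that are isolated, per chromosome, and the number above each bar is the count of isolated intervals. Chromosome X, in red, stands at 9.61%, and the highest autosome, chromosome 18, at 2.11%.

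The strongest isolated interval lay on chromosome 2 from 146837102 to 146840348 (3247 bp), with its nearest other WT peaks 154.4 kb to the left and 350.3 kb to the right. Its score was 3100 in each of the 4 WT lists. It was also 3100 in mm1179 replicates 1, 3 and 4, in both hs72 lists and in the 4 run 4 lists, and 2695 in mm1179 replicate 2. The run 3 lists gave 366 (hs1262), 385 (hs1467), 445 (hs1586) and 78.4 (hs1603). The score 3100 recurs in every list, on 1 to 3629 peaks, and peaks that share it are tied. Run 3 thus held the 4 lowest scores at this interval, although scores of different lists are not known to share a scale. By percentile within the list run 3 was also lowest, at 37.3 to 92.7, against 96.5 to 99.4 in the other lists.

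Next in strength was the widest isolated interval, on chromosome 11 from 47189657 to 47194423. It scored 3031 in WT replicate 1 and 3100 in the other 3 WT lists, between 2069 and 3100 in the mm1179 lists, and 3100 in both hs72 lists and all of run 4. The run 3 lists gave 621 (hs1262), 841 (hs1467), 585 (hs1586) and 158 (hs1603). The next interval, on chromosome 9 from 82866817 to 82871463, had WT scores of 3100, 3146, 2450 and 2560 in replicates 1 to 4. In run 3 its scores were 380, 452, 159 and 42.6 in the same order of lines. Within the list of hs1603 replicate 1 it stood at percentile 4.12, although in each of the 14 lists outside run 3 it was above 96.

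An X-linked interval behaved differently in run 3. On chromosome X from 148234993 to 148239214, with 278.2 and 196.1 kb to its neighbours, scores were 3100, 2603, 3027 and 3100 in WT replicates 1 to 4. In run 3 they were 1254 (hs1262), 1789 (hs1467), 1209 (hs1586) and 874 (hs1603). These were the lowest scores of the 18 lists, yet within their own lists they ranked at percentiles between 96.8 and 99.4.

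The other 6 of the 10 strongest lay on chromosomes 16 (19759811 to 19762019), 17 (33659549 to 33663167), 18 (7867932 to 7870781) and 3 (119484647 to 119487415) and, as a pair, on X (17738350 to 17741988 and 78315397 to 78318564). Their mean WT percentiles ran from 94.1 to 96.9. All 10 were called in every list outside run 3, and 7 of them in all 18. The 3 exceptions were each missed by 2 run 3 lists, always including hs1603 replicate 1.

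The most remote interval was also among the strongest. It lay on chromosome X from 78315397 to 78318564 (3168 bp), 2485 kb from the nearest WT peak on its left and 3441 kb from that on its right. Scores in WT replicates 1 to 4 were 1651, 1138, 1354 and 1721. The mm1179 lists gave 1460, 1003, 1796 and 3154, the hs72 lists 1684 and 1405, and each run 4 list 3100. Run 3 gave 635 (hs1262), 644 (hs1467), 427 (hs1586) and 303 (hs1603). It was called in all 18 lists, and in none of them was another peak found within 100 kb.

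Of the 5 most remote intervals, 4 lay on chromosome X. Besides the one just described these were at 120216517 to 120218275 (nearest WT peak at 1869 kb), at 111929300 to 111930952 (1517 kb) and at 151771956 to 151773507 (1504 kb). The fifth was on chromosome 2 from 95978227 to 95979400 (1699 kb), a weak interval with WT scores of 65.2, 92.0, 91.3 and 148.8. It was called in all lists but hs72 replicate 1. The X interval at 120216517 had WT scores of 591, 587, 245 and 364 and was called in every list outside run 3, where its scores reached 2420, and in no run 3 list. The one at 111929300 was weaker in WT, at 300, 142, 216 and 284, and was called in all 18 lists, run 3 included, with scores of 129 to 313 there. All 5 kept a clear 100 kb on each side in all 18 lists.

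Knockout lists, which had no part in the choice of intervals, called between 54.1% and 100% of the isolated intervals, with the 4 lowest shares in run 3. All 410 were called in each of the 4 run 4 lists, as were 99.6% of all 26921 intervals in all 4 together. In run 1, mm1179 replicate 1 called 381 (92.9%) and replicate 2 called 355 (86.6%), against 93.7% and 86.2% of all 26921 intervals. In run 2, mm1179 replicates 3 and 4 called 390 (95.1%) and 408 (99.5%), against 96.7% and 98.9% of all intervals. The hs72 lists called 389 (94.9%) and 401 (97.8%), against 95.1% and 97.8%. Run 3 fell well below, with hs1262 calling 283 (69.0%, all intervals 70.1%) and hs1467 calling 260 (63.4%, all intervals 70.5%). The counts were 240 for hs1586 (58.5%, all intervals 66.7%) and 222 for hs1603 (54.1%, all intervals 59.3%). A missing call shows only that no peak was reported. Depth is unknown, so fewer cells with the mark, less mark per cell and a shallower library cannot be told apart.

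On average isolated intervals were called slightly less often than the other intervals, by the widest margins in run 3. A call needs only 1 bp under a peak, so the peak of a neighbour can also call an other interval. The nearest other WT peak lay at a median of 3.16 kb from the other intervals and over 100 kb from each isolated one. How far this tilts the comparison was not tested. Over the 14 knockout lists the difference averaged -1.63 percentage points (SD 2.98, n = 14). A sign-flip permutation test over libraries, exact and two-sided, gave p = 0.0476. The test takes the 14 lists as independent, but lists of 1 run may share their differences, so this p and those below may be too small. The difference was negative in 7 lists and positive in 7. The positive lists include all of run 4, where 100% of isolated and 99.9% of other intervals were called, which left little room for a difference. In run 3 the 4 differences were -1.08 (hs1262), -7.15 (hs1467), -8.27 (hs1586) and -5.29 (hs1603), a mean of -5.45. Elsewhere they were between -1.59 and 0.640, and without run 3 the mean was -0.104 points, with p = 0.680 in the same exact permutation test (n = 10). The call also ended when the other intervals were weighted to the strength of the isolated ones (-0.833 points, exact permutation p = 0.449), and the sign turned with a distance limit of 200 kb (0.680 points, exact permutation p = 0.260, 123 intervals). On lists cut to equal length, which redefined the isolated intervals (640), the difference was -1.55 points and negative in 13 of 14 lists (exact permutation p = 0.000366). With WT replicate 4 left out of the definition (562 intervals) it was -2.26 points and negative in 12 of 14 (exact permutation p = 0.00146). No call held with a minimum score of 100 (p = 0.0892) or at 50 kb (p = 0.0565), both by exact permutation. Nor did one hold with a width limit of 5 kb (exact permutation p = 0.0811) or with 50% of the interval covered (exact permutation p = 0.113). The call ended when any 1 of the 7 lists with a negative difference was left out, with p from 0.0552 without hs72 replicate 1 to 0.0952 without mm1179 replicate 3 or replicate 1 of hs1467, hs1586 or hs1603 (exact permutation, n = 13).

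**Figure D3:**
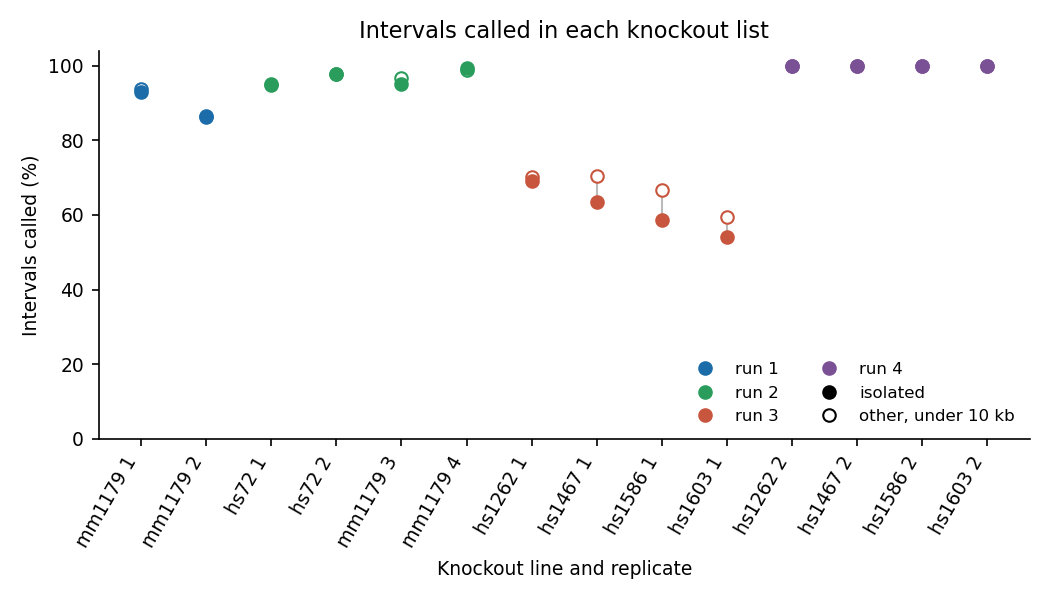
For each knockout list, grouped by run, the filled point is the percentage of the 410 isolated intervals called and the open point that of the 26433 other intervals under 10 kb. The points nearly coincide in runs 1, 2 and 4, while in run 3 the isolated minus other difference runs from -8.27 to -1.08 points.

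In each knockout list the peaks over called isolated intervals ranked lower by score and were narrower than those over the other intervals. Each interval was given the strongest peak over it, so 1 broad peak can count for several of the other intervals. Isolated intervals lie over 100 kb from any other WT peak. How far this adds to the differences was not tested. The median percentile was lower in 14 of 14 lists, with differences from -14.8 to -4.87 points. Median peak width was lower in 14 of 14, with differences from -1071 to -328 bp. In mm1179 replicate 1, for example, the median peak was 1966 bp wide at isolated intervals and 2329 bp at the others. In hs1603 replicate 1 the widths were 2640 and 3711 bp. These are descriptions, with no test.

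Loss of mm1179 was not accompanied by a loss of isolated peaks beyond the spread of the libraries. To put wild type on the same footing, isolated intervals were redefined from each set of 3 WT lists (484 to 562 intervals), and the fourth WT list was scored on them. A WT list left out in this way called 82.3% (replicate 1), 91.7% (replicate 2), 90.1% (replicate 3) and 94.3% (replicate 4), a mean of 89.6% ± 5.2 (SD, n = 4). The mm1179 lists, scored on the same definitions, called 90.5%, 82.3%, 91.9% and 98.2%, a mean of 90.7% ± 6.5 (SD, n = 4). The groups overlap, with 1 low list in each. The difference was 1.11 points, and an exact permutation test of 70 arrangements (two-sided) gave p = 0.814. Within run 1 the means were 86.4% in mm1179 and 87.0% in WT, and within run 2 they were 95.0% and 92.2% (n = 2 each), where the smallest p that the design allows is 0.333. The sign turned without WT replicate 1 (-1.96 points) and without mm1179 replicate 4 (-1.38 points), with no p under 0.05.

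The remaining lines gave no test, since an exact permutation of 2 libraries against 4 cannot go below p = 0.0667. On the same definitions the hs72 lists called 91.7% and 95.9%, a mean of 93.8% ± 3.0 (SD, n = 2), within the range of WT and mm1179 lists. The lines split between runs 3 and 4 each had 1 low and 1 high list, as in hs1262 with 68.4% and 99.7%, hs1467 with 64.3% and 99.7%, hs1586 with 59.1% and 99.7% and hs1603 with 56.2% and 99.7%. In these lines the replicates differed far more than any pair of lines within a run.

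No isolated interval was missing in every list of 1 line and present in all others. The pattern was rare over all 26921 intervals too, with 13 for hs72 and 1 each for mm1179, hs1467 and hs1603. Its absence among 410 intervals thus shows nothing particular to them. All 4 mm1179 lists called 327 isolated intervals (79.8%), against 82% of all intervals. None was missing from all 4, where 0.223% of all intervals were, and 2 were called in at most 1, against 1.26%. The intervals missing from both hs72 lists numbered 2 of 410, against 0.828% of all intervals, and they are named although no rule chose them. The first, on chromosome 12 from 30977496 to 30978600, scored 51.9, 66.7, 83.6 and 107.3 in WT replicates 1 to 4 and was also missing in mm1179 replicate 2. It was the 1 isolated interval that both hs72 lists missed and both mm1179 lists of run 2 called, a pattern of 0.383% of all intervals. The second, on chromosome 15 from 5467142 to 5468414, scored 82.6, 51.3, 54.5 and 72.0 in WT and was missing in 3 more lists. Both were weak in WT, with mean percentiles of 30.5 and 23.6.

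Counted interval by interval, 156 of 410 (38.0%) were called in all 18 lists, where 43.4% of all 26921 intervals were. Outside run 3, 318 (77.6%) were called in all 14 lists, against 80% of all intervals. None was called in fewer than 12 lists. This was rare over all 26921 intervals too, with 0.591% called in 11 lists, 0.197% in 10, 0.100% in 9 and a smaller share at each lower number. Whether the absence among 410 intervals departs from these shares was not tested. A further 92 were called in 14 lists, 48 in 15, 41 in 16 and 49 in 17, while 16 were called in 13 and 8 in 12.

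The 5 strongest of these last 8 were all missed by the 4 lists of run 3, by 1 mm1179 list and by 1 hs72 list. They lay on chromosomes 12 (17888078 to 17889114), 2 (67402926 to 67404059), X (157600204 to 157601322), 1 (192492632 to 192493909) and 3 (53667569 to 53668541). Their mean WT percentiles ran from 34.1 to 43.0. The interval on chromosome 12 differed between the WT runs, with scores of 284 and 240 in WT replicates 1 and 2 (run 1) and 60.4 and 47.8 in replicates 3 and 4 (run 2). It followed the same order in mm1179, at 194 and 198 in replicates 1 and 2, no call in replicate 3 and 91.2 in replicate 4. Within their own lists the WT scores stood at percentiles 71.5, 67.2, 23.5 and 9.68. Its run 4 scores were 893 to 958, at percentiles 79.3 to 81.6.

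Outside run 3, stability followed strength. The isolated intervals were split into 4 classes of 102 or 103 by WT percentile. In the weakest class (12.8 to 41.7) the 10 knockout lists outside run 3 called 89.5% on average. The next classes reached 97.4%, 99.9% and 100%. The other intervals cut at the same percentiles gave 87.4%, 96.1%, 99.2% and 99.8%. In each class the isolated intervals had the slightly higher share, which was not tested.

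In run 3 this order did not hold. On average over the 4 run 3 lists the strongest class was called least, as it was in hs1467, hs1586 and hs1603, while in hs1262 the weakest class was lowest, at 65.0%. Over the 4 lists the isolated intervals were called at 64.3%, 63.5%, 65.0% and 52.4% from the weakest to the strongest class. The other intervals gave 66.4%, 68.8%, 66.1% and 66.0%. In the strongest class (103 isolated intervals, WT percentile 79.3 to 99.2) hs1262 called 72, hs1467 called 57, hs1586 called 50 and hs1603 called 37, while each list outside run 3 called all 103. The shares were 69.9%, 55.3%, 48.5% and 35.9%, against 72.5%, 72.2%, 66.9% and 52.5% of the other intervals at that strength. The isolated intervals were lower in all 4 lists, by the smallest margin in hs1262. The run 3 lists held 26550 to 32472 peaks, where only mm1179 replicate 2 (30719) outside run 3 held so few. The part of list length in this pattern was not tested. Run 3 calls did not fall with distance. From the nearest to the farthest of the 4 classes of distance, the run 3 lists called 56.3%, 56.6%, 64.0% and 68.2% of isolated intervals on average. The mean share for the other intervals in run 3 was 66.7%. These values are a description, with no test.

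**Figure D4:**
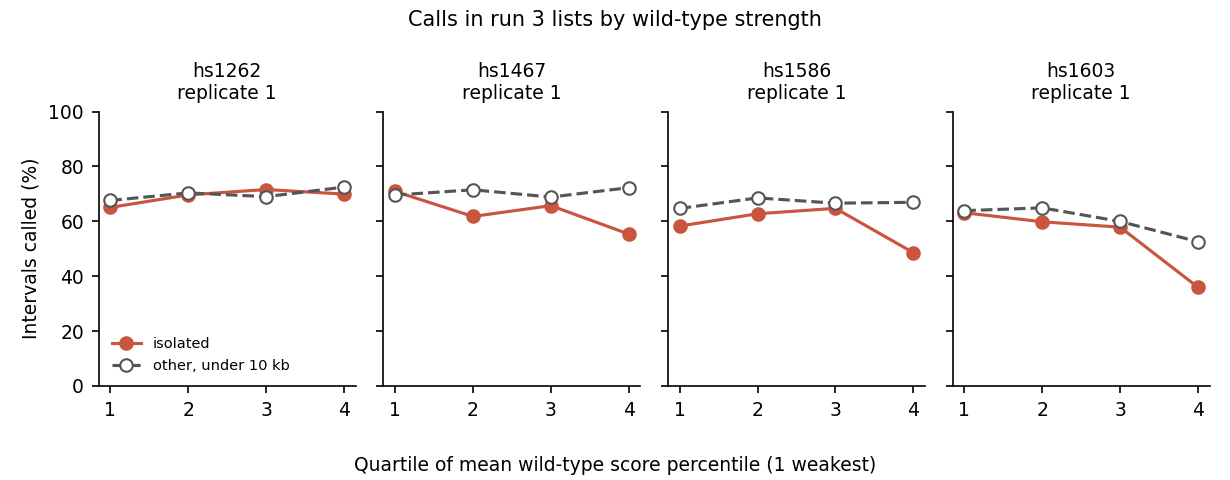
Each panel is 1 run 3 list and gives the percentage of intervals called by class (quartile) of mean wild-type score percentile, with isolated intervals in red and the other intervals under 10 kb as open points. In hs1603 replicate 1 the isolated intervals fall from 63.1% in the weakest class to 35.9% in the strongest, and in hs1262 replicate 1 they stay between 65.0% and 71.6%.

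Of the 318 isolated intervals called in every list outside run 3, 85 were called in no run 3 list and 156 in all 4. Their median WT percentiles were 66.6 and 63.7. The 37 and 22 intervals called in 1 and in 2 run 3 lists had higher medians, 79.7 and 84.4. The 18 called in 3 run 3 lists had a median of 66.5. Among the other intervals called everywhere outside run 3, the medians were 70.6, 80.1, 80.6, 78.2 and 71.3 for 0 to 4 run 3 lists. The higher medians at 1 and 2 lists are thus not particular to isolated intervals. Over all 26921 intervals, 18.7% were called everywhere outside run 3 and nowhere within it, and 20.7% of isolated intervals were.

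X-linked isolated intervals were called less often than autosomal ones in 3 of the 4 run 3 lists by over 20 points. Of the 47 on X, hs1467 called 20 (42.6%), hs1586 called 19 (40.4%) and hs1603 called 16 (34.0%), against 66.1%, 60.9% and 56.7% of the autosomal ones. In hs1262 the shares were 68.1% and 69.1%. The other intervals on X did not show so wide a gap, at 67.0%, 68.1% and 54.3% in hs1467, hs1586 and hs1603, where autosomal ones had 70.6%, 66.8% and 59.5%. In hs1262 the other intervals were called more often on X (80.8%) than on autosomes (69.9%). In the 10 knockout lists outside run 3, each list called at least 42 of the 47. On autosomes alone the difference between isolated and other intervals over the 14 lists was -1.23 points, with p = 0.0233 in the exact permutation test, an alternative added after the values were seen.

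Other peaks appeared near isolated intervals mostly in run 4. In the mm1179 and hs72 lists, 349 to 394 of the 410 intervals still had no other peak within 100 kb, and in run 3, 358 to 386. In run 4, whose lists held 54375 to 58753 peaks, the numbers were 273 (hs1262), 302 (hs1467), 293 (hs1586) and 315 (hs1603). Across all 18 lists 204 of 410 (49.8%) kept a clear 100 kb on both sides, and 74 of these were also called in all 18. At 51 intervals all 4 run 4 lists added another peak.

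The WT lists by rule show no such peak, so the lists left out in turn give their baseline. WT replicates 1 to 4 had no other peak near 89.6%, 93.0%, 88.9% and 77.8% of intervals defined by the other 3. The mm1179 lists gave 88.0%, 94.5%, 89.5% and 80.3% and the hs72 lists 86.0% and 81.4%. Run 3 gave 83.7% to 92.3% and run 4 60.6% to 71.2%. WT and mm1179 overlap, and in both the lowest value belonged to the longest list, with 44647 peaks in WT replicate 4 and 45267 in mm1179 replicate 4. The added peaks were weak within their own lists, with a median percentile of 7.91 to 20.7, where the isolated peaks of the same lists had medians of 57.4 to 76.4. The rule itself favours this contrast. It keeps intervals called in all 4 WT lists and allows no other WT peak near them.

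**Figure D5:**
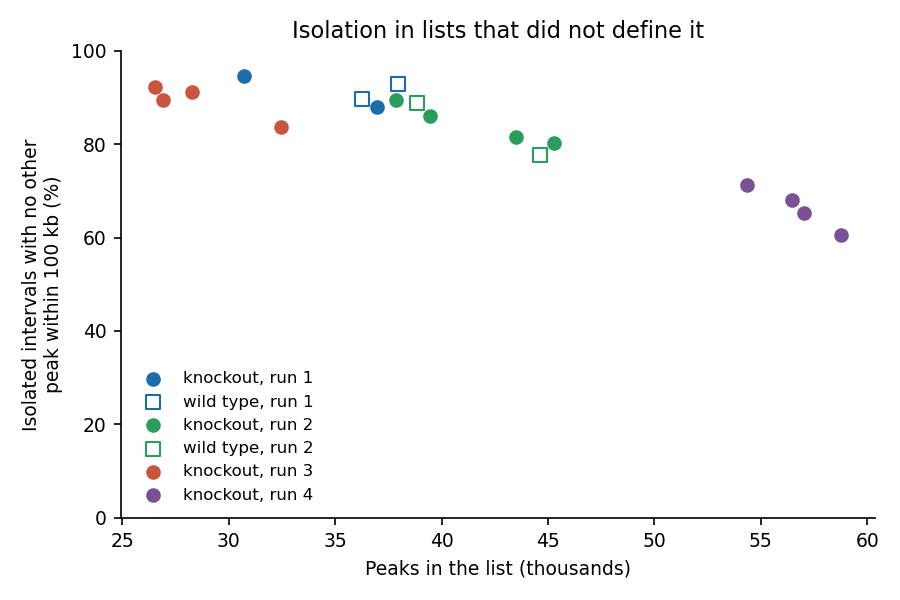
Each point is 1 list, placed by its number of peaks and by the percentage of isolated intervals that had no other peak within 100 kb in it, with intervals defined from 3 wild-type lists and each wild-type list (squares) scored only where it had no part in the definition. The 4 run 4 lists, at 54375 to 58753 peaks, sit lowest, at 60.6% to 71.2%.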

How the data were processed

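H3K27ac ChIP-seq peak lists of 18 libraries were used, and the 18 matched inputs were not used here. Per the submitters' processing notes, MACS 1.4.2, Bowtie 0.12.8, cutadapt 1.1, bcl2fastq 2.17 and CASAVA were used, with build mm9. The use of inputs as control is not given in the sources used here. Positions stand in every deposited list with the authors' score per peak, from 40 to 3233. Strength was ranked only within a list. Scores of named intervals are printed for several lists as a description, since they are not known to share a scale. Depth is unknown, so no counting interval was computed. Tissue was pooled, nothing says that pools came from separate litters, and p-values measure only the spread between them, which may be technical. Run tags came from the lists, not from the labels.

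The peaks of each WT list were merged and intervals covered by all 4 taken. An interval counted as called in a list with 1 bp or more under a peak. The 10 strongest, the 5 most remote and the 5 called in the fewest lists were named, with the intervals nearest to the limits. No list was identical to another. Tests were exact permutations over libraries at a threshold of 0.05. The sign-flip tests took lists of 1 run as independent. Alternatives were a minimum score of 100, lists of equal length, distances of 50 and 200 kb, a width of 5 kb, 50% coverage, leaving out libraries or run 3, weighting by strength and, added later, autosomes. The intervals, lists and alternatives were chosen with earlier results of these data known. The search was checked on simulated lists. Coordinates are 1-based, in mm9. No sequence is shown, since no mm9 genome was used here. Python 3.11.15, numpy 2.4.6, pandas 2.3.3 and matplotlib 3.10.9 were used.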

Additional observations from a re-analysis of the deposited data

How the results depend on the processing

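Among 64 recomputed values 13 lost the call, 3 turned in sign and 8 counts moved by over 1.5 times, while 40 did none of these. The cause was not tested. The 410 isolated intervals became 673 with a minimum score of 100, 640 on lists of equal length, 1212 at 50 kb and 123 at 200 kb, and 484 to 562 with 1 WT list left out. Those called in all lists became 265 on lists of equal length (41.4%, all intervals 45.5%) and 423 at 50 kb (34.9%, all intervals 43.4%). They became 53 at 200 kb (43.1%, all intervals 43.4%) and 318 without run 3 (77.6%, all intervals 80.0%). With 1 WT list left out they numbered 178 to 209 (33.5% to 37.2%, all intervals 40.4% to 42.4%).

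The call share of isolated minus other intervals was -1.04 points with a minimum score of 100 (p = 0.0892), -3.11 at 50 kb (p = 0.0565), -1.53 with a width limit of 5 kb (p = 0.0811), -1.50 with 50% of the interval covered (p = 0.113), -0.833 weighted by strength (p = 0.449), -0.104 without run 3 (p = 0.680) and 0.680 at 200 kb (p = 0.260), all by exact permutation. On lists of equal length it was -1.55 points, lower in 13 of 14 lists (exact permutation p = 0.000366). With 1 library left out it ranged from -2.26 to -1.12 (exact permutation p of 0.000977 to 0.0952).

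The mm1179 minus WT difference ranged from -1.96 to 3.91 points over single omissions. It was -1.96 without WT replicate 1 and -1.38 without mm1179 replicate 4, and the lowest exact permutation p of these omissions was 0.286. With the replicate block p was 0.938 and with labels exchanged within runs 0.806 (exact permutation), for the same 1.11 points, so the block changed no call. Deviations of same-numbered libraries correlated at 0.0150 to 0.0791, and 1 of 4 WT libraries correlated best with its own number. Pairs of the same run correlated at 0.0150 to 0.0878 and pairs of different runs at -0.0844 to -0.0180. These values give no sign that the numbers pair the samples, but they cannot exclude it.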
